A study of Mus musculus with 12 samples.

Results

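C1qa, C1qb and C1qc encode the 3 chains of C1q, the recognition subunit of the first component of complement. They are 3 of the 32761 genes in the deposited count table. They were chosen by the size of their genotype effects in these same libraries, at both stages, so their mutant against wild-type values are given as a description with no test. The libraries are messenger RNA of the mouse corneal endothelium, the single cell layer at the back of the cornea. The 4 groups of 3 biological replicates were late-stage Col8a2 Q455K mutants and late-stage wild types, from 8 months of age and in batch 2, and early-stage Col8a2 Q455K mutants and early-stage wild types, up to 2 months of age and in batch 1. The mutants are homozygous for a change in Col8a2, a gene for a chain of collagen VIII in Descemet membrane, and serve as a model of early-onset Fuchs endothelial corneal dystrophy. Wild-type columns carry the name c57 in the file headers, and how many animals stand behind each library was not given in the sources used here. Stage and batch cannot be told apart, so genotypes were compared within a stage.

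C1q is built from A, B and C chains in equal numbers, each with a collagen-like stalk and a globular head. The heads bind antibody complexes, C-reactive protein, apoptotic cells and other surfaces, after which the proteases C1r and C1s carried by C1q cut C4 and C2 and so start the classical pathway. Unlike most complement proteins, which come mainly from liver, C1q is made chiefly by macrophages, microglia and dendritic cells. In the mouse the 3 genes lie side by side on chromosome 4 in the order C1qb, C1qc and C1qa, between Gm31536 and Epha8, with no overlap between neighbours in the RefSeq gene table. The gene lengths implied by the deposited values were alike, at 1082 bases for C1qa, 1104 for C1qb and 1122 for C1qc.

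Because the 3 genes are neighbours and their transcripts were high in the same libraries, the 250 bases before the annotated start are shown for C1qb and C1qc, the 2 of 3 with an entry in the promoter table. They are from RefSeq, build GRCm38.p6, minus strand, at chr4:136886201-136886450 for C1qb and chr4:136892915-136893164 for C1qc, written 5′ to 3′ towards the start. Capitals mark the motifs found.
C1qb: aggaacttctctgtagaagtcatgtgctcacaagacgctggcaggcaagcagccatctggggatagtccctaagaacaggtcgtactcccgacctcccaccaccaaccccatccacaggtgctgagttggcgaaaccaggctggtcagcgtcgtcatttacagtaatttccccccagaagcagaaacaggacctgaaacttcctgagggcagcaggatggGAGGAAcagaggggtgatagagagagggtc
C1qc: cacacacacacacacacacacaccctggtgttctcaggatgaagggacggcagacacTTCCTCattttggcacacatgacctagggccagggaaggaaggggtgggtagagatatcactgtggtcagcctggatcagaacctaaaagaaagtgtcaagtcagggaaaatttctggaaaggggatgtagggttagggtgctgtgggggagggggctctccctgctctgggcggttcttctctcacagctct
The letters GAGGAA, the core bound by PU.1, the master transcription factor of macrophages, were found 30 bases before the C1qb start. In C1qc they lie on the opposite strand, 193 bases before the start, and read TTCCTC above. The same core occurs on either strand in 23.3% of 32851 promoter windows of this length. The core of an interferon response element, GAAA followed by any 2 bases and GAAA again, was in neither and is held by 2.98% of windows. Both strands were searched for each motif, and the matches do not overlap. A match describes the letters and not binding.

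In late mutants the 3 transcripts were abundant and close together across libraries. C1qa stood at 16.5, 18.9 and 22.0 FPKM in the late mutants, against 1.23, 1.03 and 1.70 FPKM in the late wild types. C1qb stood at 30.4, 39.2 and 42.3 FPKM in the late mutants, against 3.97, 6.54 and 6.11 FPKM in the late wild types. C1qc stood at 25.5, 30.9 and 36.4 FPKM in the late mutants, against 2.02, 2.10 and 2.73 FPKM in the late wild types. FPKM is reads per kilobase of transcript, scaled to library depth, so levels of the 3 genes can be set side by side. Every late mutant library was above every late wild-type library for each subunit, with a gap wider than the range within either group. In all, 14.9% of tested genes had the late mutant libraries all above the wild types.

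In early mutants the levels spread much more widely than in late mutants. C1qa stood at 31.2, 11.1 and 4.30 FPKM in the early mutants, against 0.579, 1.5 and 0.612 FPKM in the early wild types. C1qb stood at 48.6, 40.2 and 12.8 FPKM in the early mutants, against 3.44, 6.94 and 4.43 FPKM in the early wild types. C1qc stood at 30.5, 44.0 and 11.4 FPKM in the early mutants, against 0.950, 4.70 and 2.13 FPKM in the early wild types. The genotypes did not overlap for any subunit, as was so for 10.1% of tested genes in this direction. Early mutant replicate 3 was the lowest mutant library for all 3 genes. Even so its C1qa level was above the highest wild-type library of either stage.

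**Figure D1:**
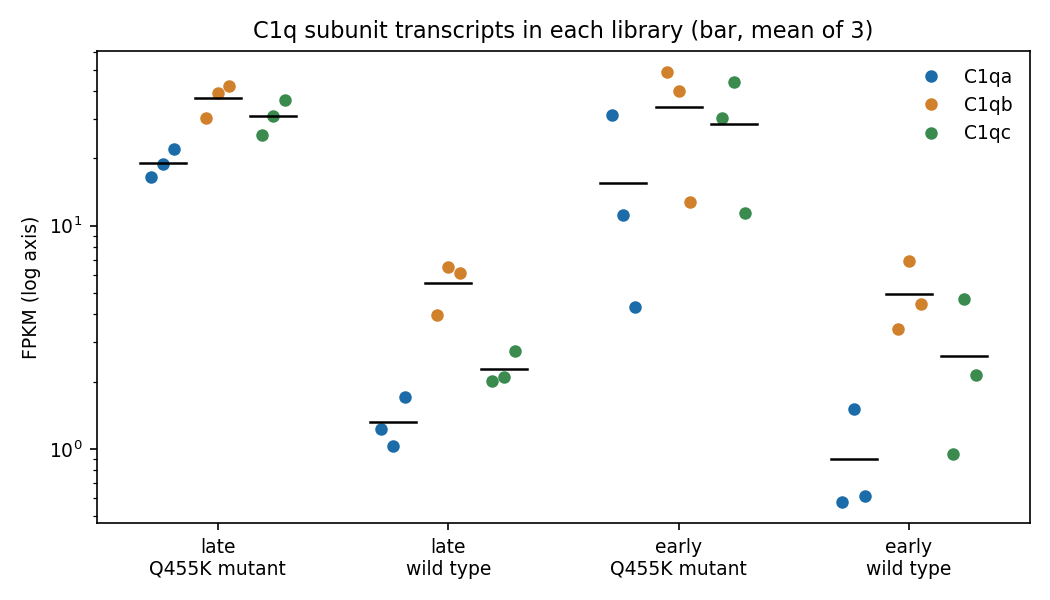
FPKM of C1qa, C1qb and C1qc on a log axis in each of the 12 libraries, by group. Points are libraries and bars are the means of 3. The mutant libraries of both stages lie above the wild-type libraries, and the 3 early mutants spread over a wider range than the 3 late mutants.

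As means ± SD of 3 libraries, C1qa was at 19.1 ± 2.76 FPKM in late mutants, 1.32 ± 0.346 in late wild types, 15.5 ± 14 in early mutants and 0.897 ± 0.522 in early wild types. C1qb was at 37.3 ± 6.14 FPKM in late mutants, 5.54 ± 1.38 in late wild types, 33.8 ± 18.8 in early mutants and 4.94 ± 1.80 in early wild types. C1qc was at 30.9 ± 5.45 FPKM in late mutants, 2.28 ± 0.391 in late wild types, 28.6 ± 16.4 in early mutants and 2.59 ± 1.92 in early wild types. In each group the order of the means was C1qb, then C1qc, then C1qa. The libraries of C1qb and C1qc overlapped in range in every group but the late wild types, and those of C1qc and C1qa in the early groups alone. The reads behind C1qa were few in wild types, at 37, 32 and 51 counts in late and 20, 32 and 23 in early libraries, so counting error bears most on its wild-type level.

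The fitted genotype effect, mutant over wild type on the log2 scale, was largest for C1qa and smallest for C1qb at both stages. Late, it was 3.70 ± 0.56 (SE; 13.0-fold) for C1qa, 2.56 ± 0.41 (5.89-fold) for C1qb and 3.59 ± 0.47 (12-fold) for C1qc, with 3 libraries in each group. Early, it was 4.31 ± 0.59 (19.8-fold) for C1qa, 2.92 ± 0.41 (7.59-fold) for C1qb and 3.66 ± 0.47 (12.7-fold) for C1qc. All 3 genes were among the genes past the threshold in the higher direction, an adjusted p under 0.05 by edgeR's quasi-likelihood test with Benjamini-Hochberg adjustment, which took in 2.77% of tested genes late and 0.557% early. As this is the contrast that chose the genes, nothing is read from that count. The median log2 fold change of all tested genes was 0.00 late and -0.11 early. In the authors' deposited table the log2 fold changes were 3.62, 2.46 and 3.51 late and 4.26, 2.88 and 3.62 early for C1qa, C1qb and C1qc in that order.

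The early size for C1qa leaned on 1 library. Without early mutant replicate 1, which held its highest level, the early log2 fold change of C1qa was 3.26. The early log2 fold change of C1qc was 4.29 without early wild-type replicate 2, the highest early wild-type library. Under limma-voom with sample weights, C1qa alone of the 3 fell short of the threshold, at 3.72 late and 3.69 early.

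The change in genotype effect between the stages did not itself choose the genes and was tested. It is built from the 2 effects that did choose them, so its p-values are not free of that choice. The late effect minus the early effect was -0.61 ± 0.75 for C1qa (95% interval -2.17 to 0.96, adjusted p = 0.81), -0.37 ± 0.55 for C1qb (-1.51 to 0.78, adjusted p = 0.85) and -0.07 ± 0.61 for C1qc (-1.36 to 1.21, adjusted p = 0.98), by edgeR's quasi-likelihood test with Benjamini-Hochberg adjustment over 17965 genes. None of the 3 passed, and 0.00557% of tested genes did, which is 1 gene. The intervals reach from a much smaller to a much larger late effect, so the effects at the 2 stages cannot be called equal from these data.

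Within a genotype the stages did not differ beyond the replicate spread either. Late over early mutants, the log2 fold change was 0.12 ± 0.49 for C1qa (95% interval -0.91 to 1.16, adjusted p = 0.99), -0.03 ± 0.38 for C1qb (-0.82 to 0.77, adjusted p = 1) and -0.04 ± 0.42 for C1qc (-0.92 to 0.83, adjusted p = 1) in the same edgeR fit. Late over early wild types, it was 0.73 ± 0.56 for C1qa (-0.45 to 1.91), 0.34 ± 0.39 for C1qb (-0.48 to 1.16) and 0.03 ± 0.45 for C1qc (-0.91 to 0.97), each with an adjusted p of 1. The share of tested genes past the threshold was 0% in both stage comparisons. edgeR gave 1174 genes with an unadjusted p under 0.05 in mutants and 724 in wild types, and DESeq2's Wald test called 13 and 1 genes. Here too, age cannot be told apart from batch.

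Added together, the 3 subunits made up 82.4, 81.3 and 107 CPM in late mutants, against 7.28, 12.4 and 12.5 CPM in late wild types. They made up 131, 107 and 34.0 CPM in early mutants, against 6.55, 12.6 and 7.11 CPM in early wild types. CPM are read counts scaled to library size after TMM, with no correction for length. The summed means were nearly the same at both stages, at 90.3 ± 14.6 CPM in late mutants, 10.7 ± 2.99 CPM in late wild types, 90.5 ± 50.5 CPM in early mutants and 8.76 ± 3.35 CPM in early wild types (SD, n = 3 each). In such bulk tissue, more cells of a type and more RNA per cell cannot be told apart.

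The mix of the 3 subunit transcripts differed between genotypes as well as their amount. C1qb made up 42.0, 44.0 and 42.0% of the summed C1q FPKM in late mutants, against 55.0, 67.6 and 58.0% in late wild types. Early, it made up 44.1, 42.2 and 44.8% in mutants, against 69.2, 52.8 and 61.8% in wild types. All 6 mutant libraries thus lay between 42.0 and 44.8%, and all 6 wild-type libraries between 52.8 and 69.2%. The share of C1qa was 21.9 ± 0.748% in late mutants, 14.6 ± 3.47% in late wild types, 18.4 ± 8.76% in early mutants and 10.5 ± 1.74% in early wild types. The share of C1qc was 35.4 ± 0.735%, 25.2 ± 3.16%, 38.0 ± 9.45% and 28.2 ± 8.42% in the same order of groups. These shares restate the smaller genotype effect of C1qb and carry no test, since they come from the contrast that chose the genes.

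**Figure D2:**
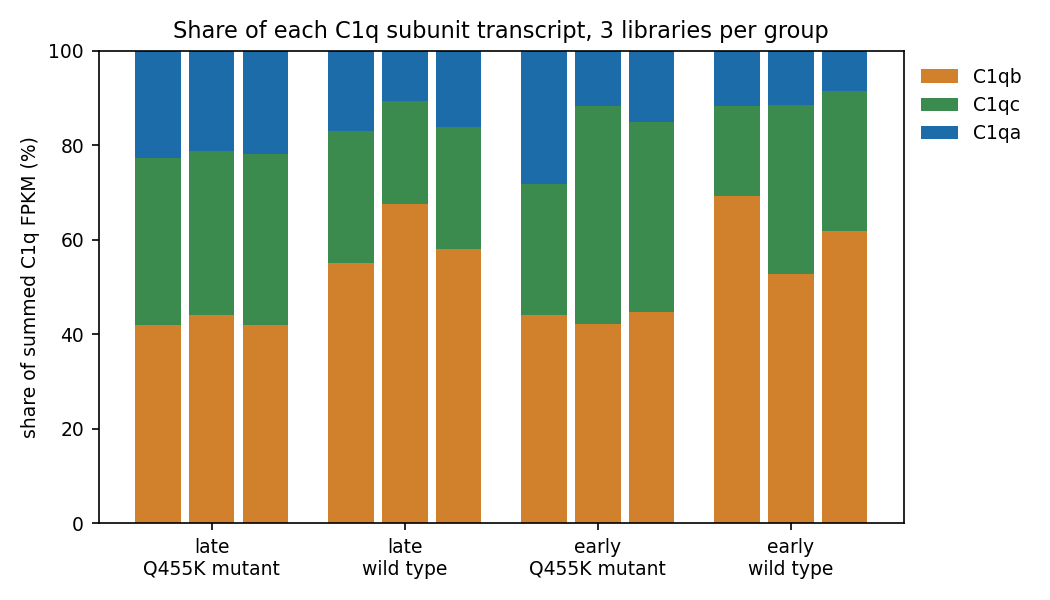
Share of each subunit in the summed C1q FPKM, as stacked bars that add to 100%, for the 3 libraries of each group in replicate order. The C1qb segment ends between 42.0 and 44.8% in mutants and between 52.8 and 69.2% in wild types, while the split between C1qc and C1qa varies most among the early mutants.

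Ratios between subunits within a library show the same pattern without the overall level. The log2 FPKM ratio of C1qc to C1qb averaged -0.27 in late mutants, -1.26 in late wild types, -0.23 in early mutants and -1.16 in early wild types, with an SD within groups of 0.42. That of C1qa to C1qb averaged -0.96 in late mutants, -2.07 in late wild types, -1.35 in early mutants and -2.54 in early wild types (SD 0.44). The ratio of C1qa to C1qc separated the genotypes far less, at -0.69, -0.81, -1.12 and -1.39 in the same order (SD 0.61). It was steady in late mutants, where all 3 ratios had SDs of 0.05 to 0.08. In early mutants C1qa exceeded C1qc in replicate 1, at a ratio of 1.02, but reached 0.253 of it in replicate 2.

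Within groups the subunits tended to be high or low in the same libraries. All 3 deviated from their group mean in the same direction in 10 of 12 libraries, the exceptions being late wild-type replicate 2 and early mutant replicate 2. Each deviation is from the mean of the same 3 libraries, so the 12 agreements are not independent. How often other sets of 3 genes agree was not tested. In early mutant replicate 3 the log2 deviations were -1.37 for C1qa, -1.16 for C1qb and -1.09 for C1qc. In early mutant replicate 1 they were 1.47, 0.77 and 0.33. Pooled over the 4 groups, the SD within groups on the log2 CPM scale was 0.80 for C1qa, 0.61 for C1qb and 0.69 for C1qc. These were above the median of 0.38 among genes of at least 5 CPM. The late mutants spread least, with log2 deviations from -0.18 to 0.29 over the 3 genes.

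Of 8 other enzymes and substrates of the classical pathway that were tested, 4 rose late and 1 rose early, and none fell. Of all tested genes, 2.77% rose late and 0.557% rose early. The list's median log2 fold change was 0.96 late and 0.84 early. C4b, the mouse C4 gene whose product C1s cleaves, had 28.1, 42.6 and 34.0 CPM in late mutants, against 8.07, 8.99 and 12.7 CPM in late wild types. Early, it had 44.2, 19.9 and 50.0 CPM in mutants, against 10.3, 5.93 and 7.89 CPM in wild types. It rose at both stages, with a log2 fold change of 1.82 ± 0.34 late (adjusted p = 0.0071) and 2.24 ± 0.35 early (adjusted p = 0.0021, edgeR's quasi-likelihood test with Benjamini-Hochberg adjustment).

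C2, whose product joins C4b in the C3 convertase, had 23.1, 22.6 and 26.2 CPM in late mutants, against 8.49, 9.55 and 8.00 CPM in late wild types. It rose late by 1.46 ± 0.34 on the log2 scale (edgeR adjusted p = 0.021). Early its log2 fold change was 0.91 ± 0.34 (edgeR adjusted p = 0.43), where wild-type replicate 3 stood at 23.7 CPM, against 10.3 and 7.34 CPM in the other wild types. Without that library the early C2 value was 1.57 and passed. The proteases that C1q carries, C1ra for C1r and C1s1 for C1s, rose late by 0.92 ± 0.23 and 0.99 ± 0.28 (edgeR adjusted p = 0.03 and 0.046). Early their log2 fold changes were 0.77 ± 0.23 and 0.93 ± 0.28, both with an edgeR adjusted p of 0.24, and the difference between stages had an adjusted p of 0.9 for C1ra and 0.97 for C1s1. C1ra and C1s1 are also among the abundant transcripts of this tissue, at 119 ± 6.69 and 331 ± 25.4 CPM in late mutants and 63.0 ± 11.5 and 166 ± 76.8 CPM in late wild types.

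The late call of C4b was kept without any single library, while those of C1ra, C1s1 and C2 each depended on single libraries. The late count was 1 without late mutant replicate 1 or 3 or without late wild-type replicate 2 or 3, and 2 without early mutant replicate 1 or 3. The early count was 3 without late wild-type replicate 1 and 2 without early wild-type replicate 3. C1rb and C1s2, close copies of C1ra and C1s1, and C3 and Hc, which encode C3 and C5, averaged at most 1.02 CPM in every group and did not pass. C3 averaged 1.02 ± 0.807 CPM in late mutants and 0.565 ± 0.789 CPM in late wild types, where 3 counts equal 0.0773 to 0.132 CPM. Its counts were 3, 45 and 50 in the late mutants, against 3, 3 and 38 in the late wild types. C4b and its close copy may share reads.

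**Figure D3:**
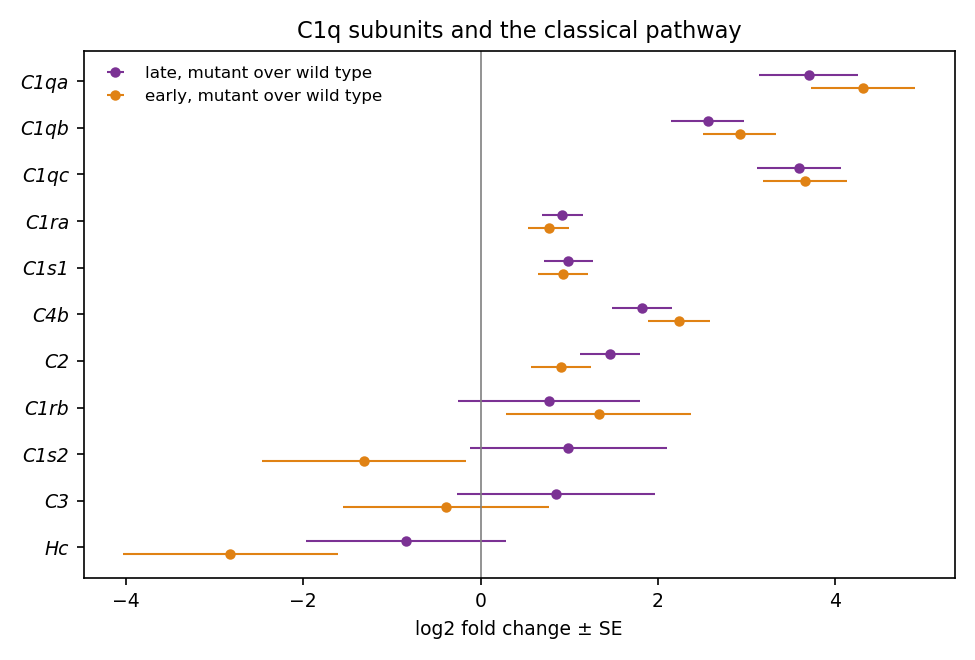
Log2 fold change ± SE, mutant over wild type, of the C1q subunits and the tested genes of the classical pathway, late and early. The subunits lie at 2.56 to 4.31, C4b at 1.82 and 2.24, C1ra and C1s1 at 0.77 to 0.99, and C1rb, C1s2, C3 and Hc have wide errors.

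None of 6 tested complement inhibitors, which act on C1, on the C3 convertase or later, passed at either stage by edgeR, DESeq2 or limma-voom, with an unadjusted edgeR p under 0.05 for 1 late and 0 early. Their median log2 fold change was 0.27 late and -0.26 early. Serping1, which encodes the C1 inhibitor that removes C1r and C1s from C1q, averaged 778 ± 184 CPM in late mutants and 486 ± 50.7 CPM in late wild types, a log2 fold change of 0.68 ± 0.27 (edgeR adjusted p = 0.12). Early the log2 fold change of Serping1 was 0.55 ± 0.27 (edgeR adjusted p = 0.57). Cd59a, which blocks the membrane attack complex, stood at -0.60 ± 0.32 late (edgeR adjusted p = 0.22).

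Among 10 tested genes for proposed C1q receptors, 3 rose and 1 fell late. Over all tested genes, 2.77% rose and 2.71% fell late. None of the 10 passed early, where 2 had an unadjusted edgeR p under 0.05, DESeq2 called 1 and limma-voom 2. The median log2 fold change was 1.28 late and 0.37 early. Calr, for calreticulin, which binds the collagen-like stalk, had 363, 272 and 297 CPM in late mutants, against 130, 110 and 102 CPM in late wild types, a log2 fold change of 1.45 ± 0.25 (edgeR adjusted p = 0.004). Early the value of Calr was 1.04 ± 0.25 (edgeR adjusted p = 0.07). Itgb1, an integrin chain, rose late by 1.12 ± 0.25 (edgeR adjusted p = 0.017). It did not pass early, at 0.77 ± 0.25 (edgeR adjusted p = 0.3), nor late without late mutant replicate 1 or late wild-type replicate 3, nor late in a fit of the compared libraries alone (edgeR adjusted p = 0.058) or with the replicate block (0.061).

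Itgam, the alpha chain of complement receptor 3 on myeloid cells, averaged 3.6 ± 1.76 CPM in late mutants and 0.360 ± 0.378 CPM in late wild types. It rose late by 3.31 ± 0.83 (edgeR adjusted p = 0.029) and stood at -1.18 ± 0.77 early (edgeR adjusted p = 0.63). The difference between stages did not pass, with an edgeR adjusted p of 0.12. Without late wild-type replicate 3 the late value was 4.5, and it did not pass without late mutant replicate 2 or 3 or late wild-type replicate 2, nor in a fit of the compared libraries alone (edgeR adjusted p = 0.051). Ager, the receptor RAGE, fell late by 1.19 ± 0.26, with 124 ± 21.8 CPM in late mutants and 284 ± 50.4 CPM in late wild types (edgeR adjusted p = 0.013). Its early log2 fold change was 0.31 ± 0.25 (edgeR adjusted p = 0.68), and the late call was lost without any 1 of the 3 late mutants and with the replicate block (edgeR adjusted p = 0.051).

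Of 6 tested molecules that C1q binds, none passed at either stage by edgeR, with median log2 fold changes of 0.45 late and 0.44 early. An unadjusted p under 0.05 was found for 2 late and 0 early, and late DESeq2 called 2 and limma-voom 1. The nearest was Prnp, the prion protein, at 0.82 ± 0.27 late (edgeR adjusted p = 0.076). The matrix proteoglycan Bgn stood at 0.66 ± 0.24 (edgeR adjusted p = 0.097). Dcn, another matrix proteoglycan, averaged 23640 ± 5875 CPM in late mutants and 19930 ± 2751 CPM in late wild types. Keratocytes of the corneal stroma also express it strongly. Of the list's 14 genes 8 were in the count table. Its immunoglobulin genes were all absent from that table, so antibody transcripts were not measured here.

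Of 19 tested genes for other proteins with a C1q-like globular head, 1 rose and 1 fell late and none passed early. Over all tested genes, 2.77% rose and 2.71% fell late, so nothing about this family is read from those counts. The 19 genes had median log2 fold changes of 0.32 late and -0.15 early. Early, 1 had an unadjusted edgeR p under 0.05, and DESeq2 called 1 and limma-voom 0. Emilin2 averaged 0.972 ± 0.506 CPM in late mutants and was at 0 in all late wild types, at least 8.7-fold higher when wild types are set to 3 counts per library (edgeR adjusted p = 0.027). C1qtnf4 fell late by 1.40 ± 0.35 (edgeR adjusted p = 0.027), with 3.6 ± 0.403 CPM in late mutants and 9.51 ± 1.94 CPM in late wild types. Both late calls were lost without any 1 of the late mutants or without late wild-type replicate 2, that of Emilin2 also without late wild-type replicate 3 and that of C1qtnf4 also without early mutant replicate 2. They were lost as well with the replicate block (edgeR adjusted p = 0.064 for Emilin2 and 0.069 for C1qtnf4), and C1qtnf4 in a fit of the compared libraries alone (0.066). C1qtnf2 was higher in all mutants than in all wild types at both stages but missed the threshold, at 1.98 ± 0.58 late and 2.26 ± 0.59 early (edgeR adjusted p = 0.051 and 0.12). It averaged 3.81 ± 1.02 CPM in late mutants and 0.962 ± 0.665 CPM in late wild types, and passed late in 7 of 20 alternatives and early in 2 of 20. Its late value was 2.70 without late wild-type replicate 2.

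The mutated gene itself belongs to this family, since collagen VIII chains end in a C1q-like head. Col8a2 and its partner Col8a1 were picked for mention after their values were seen. Col8a2 averaged 890 ± 150 CPM in late mutants, 938 ± 235 in late wild types, 938 ± 122 in early mutants and 1175 ± 568 in early wild types. Its log2 fold change was -0.08 ± 0.32 late and -0.32 ± 0.32 early (edgeR adjusted p = 0.9 and 0.71). That of Col8a1 was 0.51 ± 0.32 late and 0.54 ± 0.32 early (edgeR adjusted p = 0.29 and 0.61), and the late value was 1.04 and passed without late wild-type replicate 1.

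Markers of macrophages, the main known source of C1q, were mostly higher in mutants beside the subunits. The log2 fold change was above 0 for all 22 tested markers late and for 18 of them early. Those below 0 early were Ptprc at -1.57 ± 0.94, Mrc1 at -0.62 ± 1.03, Ly86 at -0.54 ± 0.39 and Mertk at -0.12 ± 0.31. Ptprc had 0.519, 0.492 and 0.742 CPM in early mutants, against 0.15, 1.49 and 3.53 CPM in early wild types, so the genotypes overlapped. Of the 22, 14 rose late and 7 rose early past the threshold, and none fell past it. Of all tested genes, 2.77% rose late and 0.557% rose early. The median log2 fold change of the markers was 2.64 late and 1.45 early. Summed over the 23 genes of the list, the markers ran from 439 to 539 CPM in late mutants, 57.9 to 84.1 CPM in late wild types, 294 to 582 CPM in early mutants and 56.0 to 84.0 CPM in early wild types. Much of that sum was Lyz2 alone. It ran from 238 to 278 CPM in late mutants, 24.1 to 37.3 in late wild types, 171 to 344 in early mutants and 11.6 to 42.4 in early wild types. No gene of the list was at 0 in all libraries of a group. The part of macrophage number in the C1q levels was not tested. The late count was 9 without late mutant replicate 1 or 3 or late wild-type replicate 3, and the early count was 4 without early mutant replicate 1.

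Several macrophage genes, taken from those of the list with the smallest late p, followed C1q at both stages. Ctss, the lysosomal protease cathepsin S, had 59.6, 62.8 and 75.5 CPM in late mutants, against 5.34, 10.8 and 7.07 CPM in late wild types. Early, it had 68.6, 99.4 and 40.7 CPM in mutants, against 6.70, 5.58 and 2.45 CPM in wild types. Its log2 fold change was 3.09 ± 0.40 late and 3.83 ± 0.41 early (edgeR adjusted p = 0.00032 and 0.00013). Lyz2, the lysozyme of macrophages, rose by 3.03 ± 0.39 late and 3.39 ± 0.40 early (edgeR adjusted p = 0.00033 and 0.00016). Cd68, a lysosomal marker of macrophages, rose by 2.30 ± 0.38 late and 2.55 ± 0.38 early (edgeR adjusted p = 0.0025 and 0.0012).

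Other macrophage genes passed late and did not pass early. Csf1r and Adgre1, the receptor for macrophage growth factor and the F4/80 antigen, were picked for mention after their values were seen. Csf1r had 8.60, 12 and 12.9 CPM in late mutants, against 1.11, 1.40 and 2.18 CPM in late wild types. Early, it had 5.63, 3.52 and 3.09 CPM in mutants, against 0.936, 3.78 and 2.86 CPM in wild types, so the genotypes overlapped. The log2 fold change of Csf1r was 2.83 ± 0.48 late and 0.69 ± 0.45 early (edgeR adjusted p = 0.0033 and 0.63). That of Adgre1 was 2.99 ± 0.62 late and 0.76 ± 0.59 early (edgeR adjusted p = 0.011 and 0.67), and its early value ran from 0.45 without early wild-type replicate 1 to 1.69 without early wild-type replicate 2. The difference between stages did not pass for either, with an edgeR adjusted p of 0.19 for Csf1r and 0.3 for Adgre1.

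**Figure D4:**
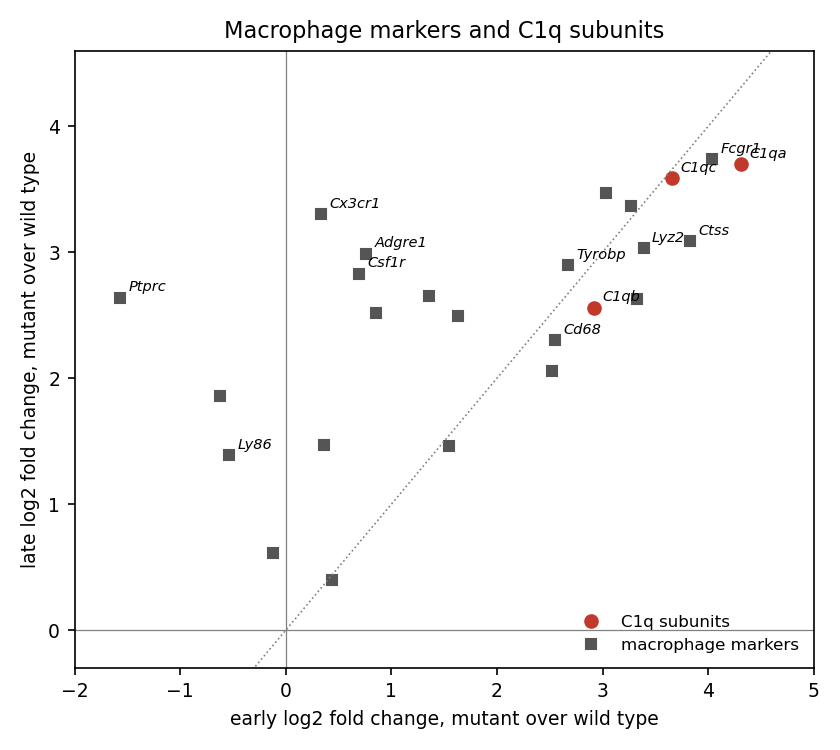
Late against early log2 fold change, mutant over wild type, of the 22 tested macrophage markers and the 3 C1q subunits. The dotted line marks equal values. The subunits lie beside Ctss, Lyz2, Tyrobp and Cd68 near the line, while Csf1r and Adgre1 lie well above it.

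Of 7 transcription factors of macrophages, 2 rose late, against 2.77% of all tested genes, and none passed early. Their median log2 fold changes were 0.89 late and 0.22 early. Early, 1 had an unadjusted edgeR p under 0.05, and DESeq2 and limma-voom called 0. Irf8 averaged 6.19 ± 0.853 CPM in late mutants and 1.22 ± 0.719 CPM in late wild types, a log2 fold change of 2.35 ± 0.48 (edgeR adjusted p = 0.011). Its late value was 2.94 without late wild-type replicate 2. Early the log2 fold change of Irf8 was 0.22 ± 0.46 (edgeR adjusted p = 0.87). Spi1, which encodes PU.1, had 2.41, 2.62 and 3.85 CPM in late mutants, against 0.393, 0.441 and 0.350 CPM in late wild types. It rose late by 2.89 ± 0.77 (edgeR adjusted p = 0.035) and stood at 1.53 ± 0.73 early (edgeR adjusted p = 0.57). The late call of Spi1 was lost without late mutant replicate 1 or 3, late wild-type replicate 2 or 3 or early mutant replicate 1, and with limma-voom (adjusted p = 0.062), the compared libraries alone (0.051) or the replicate block (0.066). Its early value ran from 1.07 without early wild-type replicate 1 to 2.81 without early wild-type replicate 2. Nr1h3, the nuclear receptor LXR alpha, stood at 0.89 ± 0.26 late and 0.04 ± 0.26 early (edgeR adjusted p = 0.052 and 0.97).

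Markers of lymphocytes and of monocytes and neutrophils were scarce, and most of the dendritic cell sum was Zbtb46. Summed, the 10 lymphocyte markers in the table ran from 1.87 to 2.30 CPM in late mutants, 0.894 to 1.44 CPM in late wild types, 0.792 to 1.39 CPM in early mutants and 0.524 to 5.67 CPM in early wild types. The 9 monocyte and neutrophil markers ran from 4.02 to 5.29, 0.466 to 3.97, 1.39 to 3.72 and 0.722 to 4.04 CPM in the same order of groups, and the 7 dendritic cell markers from 10.5 to 11.9, 11.8 to 19.7, 8.77 to 12.9 and 12.3 to 14.3 CPM. Zbtb46 alone averaged 8.82, 15.1, 9.97 and 12.2 CPM in that order. No tested gene of these 3 lists passed at either stage by edgeR, while DESeq2 called 2 of 5 monocyte and neutrophil markers late. An unadjusted edgeR p under 0.05 was found late for 0 of 5 lymphocyte, 2 of 5 monocyte and neutrophil and 1 of 3 dendritic cell markers, and early for 1, 1 and 0. The 7 microglia markers summed to 578 to 695 CPM in late mutants, 259 to 399 CPM in late wild types, 539 to 681 CPM in early mutants and 228 to 571 CPM in early wild types. Most of that sum in late mutants was Olfml3, at 502 ± 34.6 CPM (SD, n = 3). Of 6 tested microglia markers, 2 rose late, against 2.77% of all tested genes, and none passed early. Their median log2 fold changes were 1.63 late and 0.36 early. Early, 1 had an unadjusted p under 0.05 and DESeq2 and limma-voom called 1 each. The 6 mast cell markers summed to at most 1.71 CPM in any library, and the 1 tested did not pass by any tool.

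Markers of keratocytes at both stages, of photoreceptors early and of lens late held genes that rose beside C1q. The 9 corneal endothelial markers were all detected, from 9550 to 12100 CPM in sum in late mutants, 5270 to 12700 in late wild types, 9160 to 14100 in early mutants and 7680 to 10600 in early wild types. None passed by edgeR, with an unadjusted p under 0.05 for 4 late and 1 early, and DESeq2 and limma-voom called 2 each late and 0 early. Of 9 keratocyte markers, 4 rose and 1 fell late and 3 rose early, with median log2 fold changes of 1.12 and 1.19. Over all tested genes, 2.77% rose and 2.71% fell late and 0.557% rose early. Kera rose by 2.35 ± 0.38 late and 2.43 ± 0.38 early (edgeR adjusted p = 0.0023 and 0.0021), and Cd34 rose by 2.08 ± 0.31 late and 1.89 ± 0.31 early (edgeR adjusted p = 0.0012 and 0.003). Ptgds, the keratocyte marker that fell late, averaged 121.6 ± 51.3 CPM in late mutants and 313.5 ± 86.0 CPM in late wild types. Its late call was lost without late mutant replicate 1 or 3 or late wild-type replicate 2 or 3. Early it was higher in mutants, at 318.5 ± 122.5 against 139.1 ± 37.8 CPM, and did not pass. Of 8 photoreceptor markers none passed late and 3 rose early, with median log2 fold changes of 1.73 and 2.86. Late, 6 had an unadjusted edgeR p under 0.05, DESeq2 called 4 and limma-voom 0. Their sum ran from 44.1 to 224 CPM in late mutants, 28.8 to 79.3 CPM in late wild types, 110 to 254 CPM in early mutants and 14.3 to 36.5 CPM in early wild types. Of 5 lens markers 2 rose late and none passed early, with median log2 fold changes of 1.47 and -1.06. Early, 0 of the 5 were above 0. The 2 lens markers with an unadjusted edgeR p under 0.05 early were thus lower in mutants, and DESeq2 and limma-voom called 0. None of 5 melanocyte markers passed by edgeR at either stage, with an unadjusted p under 0.05 for 0 late and 5 early, of which DESeq2 called 1. None of 4 corneal epithelial markers passed by any tool, and none had an unadjusted p under 0.05. The part of these other tissues in the C1q values was not tested.

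Among 9463 tested genes of at least 5 CPM, those whose level followed the subunits most closely over the 12 libraries were picked by the root mean square difference of their centred log2 CPM profile from the mean profile of the subunits. The subunits themselves lay 0.36, 0.38 and 0.30 from that mean, for C1qa, C1qb and C1qc. The nearest 10 others were Ms4a7 and Fcgr3 at 0.47, Ccnd2, Egr1 and Ctss at 0.50, Lyz2, Mmp3 and Nnmt at 0.53, Tyrobp at 0.55 and Cebpd at 0.57. Ms4a7, Fcgr3, Ctss, Lyz2 and Tyrobp are genes of macrophages and other myeloid cells, while Ccnd2 encodes a cyclin, Egr1 and Cebpd transcription factors, Mmp3 a matrix protease and Nnmt a nicotinamide-methylating enzyme. These profiles share the 12 libraries and the same group differences, so the likeness is a description.

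Of the 10, Fcgr3, which encodes an activating IgG receptor, had 14.5 ± 1.78 CPM in late mutants, 2.27 ± 1.15 in late wild types, 13.3 ± 5.69 in early mutants and 1.57 ± 1.65 in early wild types. Ms4a7 had 15.7 ± 1.85, 2.54 ± 1.01, 16.2 ± 5.20 and 1.61 ± 0.0533 CPM in the same order of groups. Ccnd2 was far more abundant, at 264 ± 48.2, 37.3 ± 10.3, 278 ± 112 and 39.9 ± 5.78 CPM. By Spearman rank correlation in place of the difference, Fcgr3 ranked 1 and Ms4a7 8 among the 9463 genes, with ties. Mmp3, Egr1, Ctss, Ccnd2, Lyz2, Nnmt and Tyrobp ranked 12 to 45, and Cebpd 255. Of the 10 genes taken as nearest by rank correlation, only 1, Fcgr3, was among the 10 named here, with Ms4a7 left out by ties. The list of nearest genes thus depends on the measure.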

How the data were processed

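RNA was extracted with TRIzol and made into libraries with a strand-keeping kit, per the labels' protocols. The tools fastp, HISAT2, HTSeq and DESeq2 and the build GRCm39 come from the submitters' processing notes. Annotation, strand setting and any batch adjustment were not given in the sources used here. Per the file headers, the deposited tables hold raw read counts and FPKM per gene, and the authors' log2 fold changes. Total counts ran from 19722598 to 39431676 per library, and 3 counts equal 0.0773 to 0.132 CPM, for counting error only.

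edgeR 4.0.16 in R 4.3.3 fitted the counts of all 12 libraries with TMM scaling, filterByExpr on the 4 groups, which left 17965 of 32761 genes, robust dispersions and quasi-likelihood F tests. SEs were derived from the F statistic, and p-values were adjusted by Benjamini-Hochberg with a threshold of 0.05. The procedure was tested on simulated data. Replicates are labelled biological, no 2 libraries were identical, and with unknown pooling p-values measure the spread between these libraries. Alternatives were other scaling, filters, DESeq2 1.42.0, limma-voom (limma 3.58.1), fits of the compared libraries, a replicate block, protein-coding genes alone and leaving out libraries. Same-numbered replicates did not deviate together.

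The subunits and gene lists were chosen with earlier results of these data known. Genes named are the subunits, the tested classical pathway genes, up to 4 of each other list with the smallest late p and the 10 nearest profiles, apart from genes not reported here. Csf1r, Adgre1, Col8a1, Col8a2, Olfml3, Zbtb46, Ptprc, Ly86, Mrc1 and Mertk were added after their values were seen. RefSeq sequences and gene order are of GRCm38.p6, another build than the files', and C1qa has no promoter shown.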

Additional observations from a re-analysis of the deposited data

How the results depend on the processing

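The genotype effects of the subunits are descriptions, and their calls support nothing. C1qa was no longer past the threshold under limma-voom with sample weights, at 3.72 late and 3.69 early, and the cause was not tested. Over 21 alternatives the log2 fold changes were 3.6 to 3.96 late and 3.26 to 4.76 early for C1qa, 2.42 to 2.77 late and 2.48 to 3.32 early for C1qb, and 3.52 to 3.77 late and 3.26 to 4.29 early for C1qc. With a replicate block the values were 3.72, 2.61 and 3.6 late and 3.89, 2.74 and 3.63 early for C1qa, C1qb and C1qc. Same-numbered libraries of the 2 genotypes had deviations that correlated at -0.09 to 0.08, so the numbers do not pair them.

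No difference of effects and no stage effect of a subunit passed the threshold in any alternative, and several changed sign. Under limma-voom the late minus early genotype effect was 0.03 for C1qa, 0.05 for C1qb and 0.34 for C1qc, and with a filter of 5 CPM in 3 libraries it was 0.13 for C1qc. Leaving out libraries it ran from -1.06 to 0.44, -0.76 to 0.02 and -0.74 to 0.36 for C1qa, C1qb and C1qc. The stage effect in mutants was 0.49 for C1qb and 0.48 for C1qc under limma-voom and 0.07 and 0.06 with that filter. It ran from -0.33 to 1.17, -0.42 to 0.35 and -0.42 to 0.36 for the 3 genes without single libraries. In wild types that of C1qc was -0.06 with that filter, -0.03 in a fit of the compared libraries alone, and -0.29 to 0.70 without libraries.

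Counts of genes past the threshold moved most. The late count, 497 higher and 486 lower, came to 1507 without the filter, 2478 by DESeq2, 1744 by limma-voom, 489 with the compared libraries alone, 456 with the replicate block and 229 to 4371 without libraries. The higher share of late calls was 50.6%, and 33.8% by limma-voom. The early count of 106 was 361 without the filter, 237 by DESeq2 and 51 to 179 without libraries. Without late wild-type replicate 1 the median late log2 fold change of all genes was 0.27. Late classical pathway calls were 2 with the compared libraries or the replicate block and 1 to 4 without libraries. Early they were 2 by DESeq2, 3 by limma-voom and 1 to 3 without libraries. Macrophage marker calls were 9 to 17 late and 4 to 9 early without libraries, and 11 early with no filter. Genes past the threshold for the difference were 327 by DESeq2, and for stage in mutants 289 by limma-voom.

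Values of genes that did not pass and changed sign were, for the early genotype effect, 0.03 (limma-voom) and -0.28 to 0.21 for Cr1l, 0.01 (no filter), 0.03 (limma-voom) and -0.19 to 0.13 for Dcn, -0.06 (filter of 5 CPM), -0.01 (protein-coding genes) and -0.07 to 0.20 for Nr1h3, -0.63 to 0.19 for C3, -0.56 to 0.05 for Cd59a, -1.62 to 1.02 for Emilin2 and -0.62 to 0.09 for Col8a2, the ranges without libraries. Late, they were 0.02 (limma-voom) and -0.19 to 0.28 for Col8a2 and -0.51 to 3.37 for C1s2. Subunit ratios in CPM kept the order of groups they had in FPKM. Low wild-type counts limit the precision of C1qa.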
